A study of Mus musculus with 18 samples.

Results

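The left ventricle of wild-type (WT) mice at 10 weeks of age was compared with that of WT mice at 3 weeks, the whole age span of the series. The comparison took 6 of the 18 RNA-seq libraries, the 3 labelled WT at 3 weeks and the 3 labelled WT at 10 weeks, and these were chosen by genotype and age alone. All of the mice were male and of the strain 129SVE, and the tissue was frozen mid wall of the left ventricle. The 3 WT libraries of 6 weeks served to place the middle age between the ends. The 9 libraries labelled MLP KO at 3, 6 and 10 weeks, of the same strain, sex and tissue, served to ask whether the change with age differed. All 18 libraries were fitted together, so these 9 also had a part in the gene filter, the scaling and the spread behind every p. MLP is muscle LIM protein, a Z-disc protein encoded by Csrp3. The labels name no engineered allele or treatment in WT, and they do not say whether the 3 libraries of a group came from separate animals, so every p measures the spread between these libraries.

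In the weeks after birth most mouse cardiomyocytes stop dividing and the ventricle goes on growing by enlargement of its cells. Over the same time the fibroblasts lay down less new collagen, T-tubules and adult calcium handling are completed, and the fuel of the muscle moves towards fatty acids. Weaning, which ends a diet of fat-rich milk, falls near the youngest age sampled here.

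Library totals ran from 14980968 to 20384316 counts at 3 weeks, 19118774 to 23001047 at 6 weeks and 17859293 to 20026389 at 10 weeks. CPM, the unit of all levels below, are counts brought to 1 common library total, which compare libraries but not genes, and differences are given as log2 fold changes of 10 against 3 weeks with their standard error. The summed CPM of 15 cardiomyocyte markers was 89771 to 106152 at 3 weeks, 112135 to 124191 at 6 weeks and 104825 to 116159 at 10 weeks. Myl4, an atrial myosin light chain, stood at 12.1, 2.69 and 23.2 CPM at 3 weeks and 2.81, 21.2 and 2.56 CPM at 10 weeks, so replicate 3 of 3 weeks and replicate 2 of 10 weeks held the most atrial transcript. Csrp3 was at 1022 ± 81.6, 1369 ± 130 and 1048 ± 66.4 CPM in WT at 3, 6 and 10 weeks (SD, n = 3). It was no lower in the libraries labelled KO, at 1783 ± 819 CPM at 3 weeks and 2565 ± 975 CPM at 10 weeks, so its count did not check those labels, and which exons the allele lacks was not given in the sources used here.

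Some genes were close to silent at 10 weeks and abundant at both younger ages, or the reverse, and they are given before the results because they set the largest fold changes. From 6 to 10 weeks 70 genes changed over 8-fold in WT (0.444% of genes tested), against 7 from 3 to 6 weeks (0.0444%). These 70 lay on 18 chromosomes, and 39 were predicted loci, of which 18 were pseudogenes, against 465 pseudogenes among all 15778 genes tested. The processed pseudogene Gm7993 (chromosome 5), for example, was at 20.4 ± 1.24 CPM at 3 weeks, 21.7 ± 0.913 at 6 weeks and 0.244 ± 0.171 at 10 weeks (SD, n = 3). In the libraries labelled KO it was at 0.267 ± 0.153 CPM at 3 weeks and 0.408 ± 0.201 at 10 weeks (SD, n = 3).

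Of 32 genes that fell over 8-fold from 6 to 10 weeks from a mean of at least 1 CPM at 3 weeks, 18 were below 0.25 of the WT 3-week mean in all KO groups, and 8 were at 0.5 of it or more in all of them. In the same step 18 genes rose over 8-fold to a mean of at least 1 CPM at 10 weeks. In all KO groups 10 of these were below 0.25 of the WT 10-week mean, and 2 were at 0.5 of it or more. The labels give 1 strain for every group, and age cannot be told apart from anything else in which the mice of 10 weeks differed from the younger WT mice. Counts of a pseudogene and of its parent gene can be exchanged in the counting, so single pseudogenes are uncertain. For several of the gene groups below the counts by step or in the libraries labelled KO are given as well.

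Of 15778 genes tested, 2609 differed between 10 and 3 weeks in edgeR's quasi-likelihood test at a Benjamini-Hochberg adjusted p under 0.05, which is 16.5%. 1334 (8.45%) were higher and 1275 (8.08%) were lower at 10 weeks. Of the changes over 2-fold, 218 were increases and 578 were decreases. The median log2 fold change of all genes tested was -0.01, and the 3 and 3 values of 36.3% of all genes did not overlap. Leaving out libraries gave 1462 calls without replicate 1 of 3 weeks, 1596 without replicate 2 of 10 weeks, 1613 without replicate 3 of 10 weeks and 1698 without the pair richest in Myl4, and 1174 genes were called in all 6 fits that left out 1 library.

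The mean at 6 weeks lay between the ends for 2090 of the 2609 called genes (80.1%), against 41.3% of all genes tested. It lay past the 10-week end for 191 and past the 3-week end for 328. Called genes were picked by the difference between the ends, which by itself places the 6-week mean between them more often. The contrast with all genes is therefore no test. The median share of the log2 change reached by 6 weeks was 45.8%, against 49.5% over all genes tested. Tested by step, 452 of the 2609 were also called in the same direction from 3 to 6 weeks, 788 from 6 to 10 weeks, 51 in both steps and 1420 in neither. These steps share libraries with the whole span, so the counts describe the course and are no independent test. In all, 818 genes were called from 3 to 6 weeks (5.18%; 2.94% higher, 2.24% lower) and 1383 from 6 to 10 weeks (8.77%; 3.64% higher, 5.12% lower). From 3 to 6 weeks the count was 278, 199 and 1313 without replicate 1, 2 or 3 of 3 weeks, and 213 and 305 without replicate 1 or 3 of 6 weeks. From 6 to 10 weeks it was 555 and 754 without replicate 1 or 3 of 6 weeks, and 722, 742 and 762 without replicate 1, 2 or 3 of 10 weeks. On the first principal component of the 9 WT libraries, with 40.1% of the variance, the scores were -41.0 to -26.9 at 3 weeks, -9.62 to -5.16 at 6 weeks and 33.6 to 47.9 at 10 weeks. On the next component, with 18.2%, they were -2.05 to 29.3, -33.8 to -20.1 and 4.51 to 19.2. The 6-week libraries lay between the ends on the former and below both ends on the latter.

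**Figure D1:**
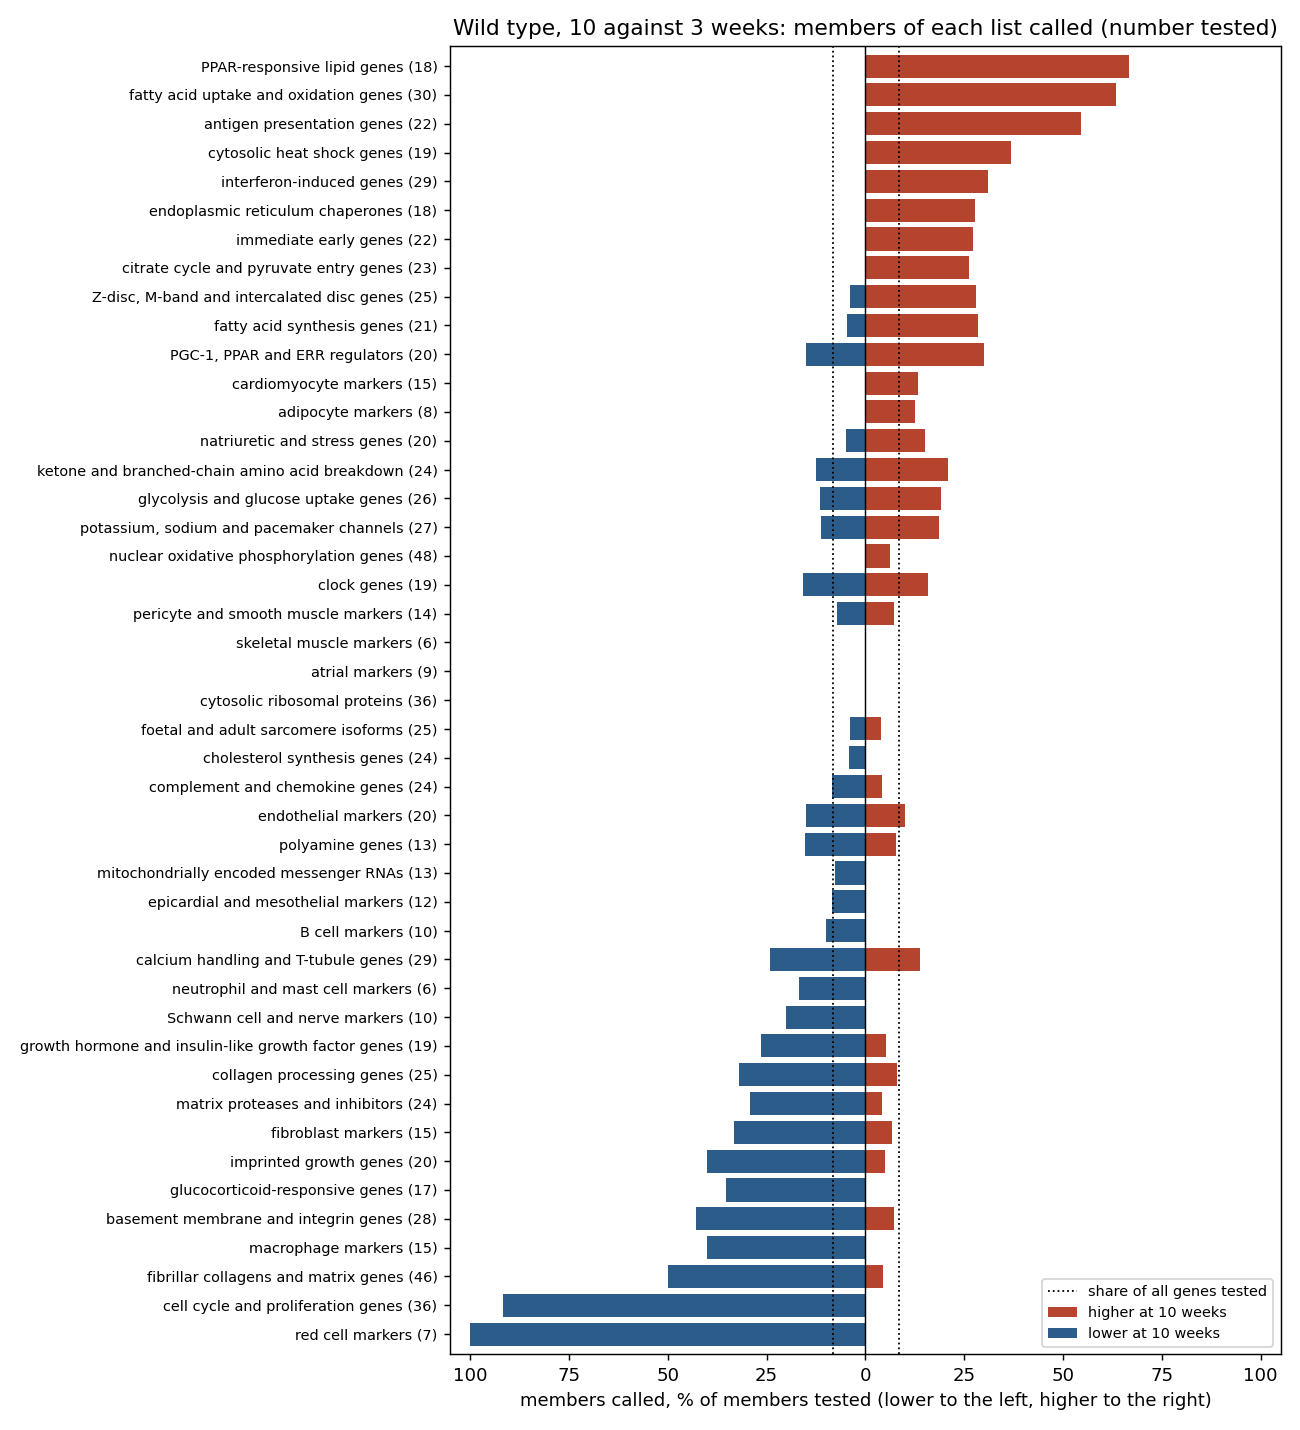
Members of each gene list called higher (right, red) or lower (left, blue) at 10 than at 3 weeks in WT, as a percent of the members tested, whose number is in brackets; dotted lines mark the shares of all genes tested, 8.45% higher and 8.08% lower. Red cell, cell cycle and matrix genes lie furthest to the left, PPAR-responsive, fatty acid and antigen presentation genes furthest to the right.

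Genes of the cell cycle fell almost as a whole. Of 36 list members tested, 33 fell from 3 to 10 weeks, against 8.08% of all genes tested, with a median log2 fold change of -1.99. The values of 35 did not overlap between the ages, against 36.3% of all genes tested. Mki67, the proliferation antigen Ki-67, was at 28.0, 34.6 and 30.7 CPM at 3 weeks, 5.77, 5.68 and 6.72 at 6 weeks, and 5.03, 1.85 and 2.09 at 10 weeks. All 3 values of 10 weeks were below all of 6 weeks, and all of those far below 3 weeks. Its log2 fold change was -3.36 ± 0.40 (SE; adjusted p = 5.12e-05). At 6 weeks its log2 fold change against 3 weeks was already -2.36.

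Cyclin B2 (Ccnb2), which drives entry into mitosis with Cdk1, was at 7.04, 5.28 and 5.70 CPM at 3 weeks and at 0.740, 0.616 and 0.174 at 10 weeks (log2 fold change -3.52 ± 0.36, adjusted p = 9.05e-07). Hmgb2, a chromatin protein of dividing cells, was at 35.5, 29.7 and 29.5 CPM at 3 weeks and 10.7, 9.69 and 10.3 at 10 weeks (-1.62 ± 0.15, adjusted p = 3.56e-07). Neither pair of groups overlapped. Foxm1, the transcription factor of the mitotic genes, fell by 2.77 on the log2 scale, and Mcm6 and Mcm3, subunits of the replication helicase, by 2.16 and 1.32. The survivin gene Birc5 and cyclin B1 (Ccnb1) fell by 3.55 and 3.89. The 3 members not called were Pcna, Cenpa and the cyclin D2 gene Ccnd2. Ccnd2 did not pass the test, at 111, 140 and 134 CPM against 109, 104 and 95.5 CPM (adjusted p = 0.0921).

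From 3 to 6 weeks 24 of the 36 fell, and from 6 to 10 weeks 9. With any 1 library left out, 30 to 33 of the 36 were called lower over the whole span. From 3 to 10 weeks 34 of the 36 fell and 2 rose in the libraries labelled KO. In bulk tissue fewer cells in cycle and less of each RNA per cell cannot be told apart, and the same holds for every cell type below.

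Promoters of the 4 list members with the smallest p among those that held both motifs named next are printed as examples of promoters that hold both. Searched were the cell-cycle homology region (CHR, TTTGAA) and the CCAAT box (CCAAT), each on both strands, in RefSeq promoters of GRCm38.p6 that run from 250 bases before to 50 after the annotated start. The windows are chr9:70421505-70421804 (minus strand) for Ccnb2, chr8:57511593-57511892 (plus) for Hmgb2, chr2:118597961-118598260 (plus) for Bub1b and chr9:61946750-61947049 (minus) for Kif23, and capitals mark the motifs, which do not overlap each other in them.
Ccnb2: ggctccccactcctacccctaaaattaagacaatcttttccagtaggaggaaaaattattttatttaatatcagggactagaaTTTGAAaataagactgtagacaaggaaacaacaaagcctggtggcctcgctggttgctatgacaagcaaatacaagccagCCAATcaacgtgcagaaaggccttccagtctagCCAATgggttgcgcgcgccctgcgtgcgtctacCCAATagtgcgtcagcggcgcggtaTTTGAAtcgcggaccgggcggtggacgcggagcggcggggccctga
Hmgb2: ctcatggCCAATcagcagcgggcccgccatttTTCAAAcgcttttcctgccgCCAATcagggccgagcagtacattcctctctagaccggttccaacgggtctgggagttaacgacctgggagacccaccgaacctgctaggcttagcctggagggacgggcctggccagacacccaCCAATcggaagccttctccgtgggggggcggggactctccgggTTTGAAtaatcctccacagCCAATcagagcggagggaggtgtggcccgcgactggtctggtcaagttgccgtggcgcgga
Bub1b: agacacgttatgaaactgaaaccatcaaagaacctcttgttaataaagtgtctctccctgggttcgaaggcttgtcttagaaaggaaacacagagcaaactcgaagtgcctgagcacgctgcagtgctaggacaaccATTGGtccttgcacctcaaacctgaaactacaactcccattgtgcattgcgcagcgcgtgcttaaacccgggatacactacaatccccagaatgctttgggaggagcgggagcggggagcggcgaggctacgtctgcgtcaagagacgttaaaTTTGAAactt
Kif23: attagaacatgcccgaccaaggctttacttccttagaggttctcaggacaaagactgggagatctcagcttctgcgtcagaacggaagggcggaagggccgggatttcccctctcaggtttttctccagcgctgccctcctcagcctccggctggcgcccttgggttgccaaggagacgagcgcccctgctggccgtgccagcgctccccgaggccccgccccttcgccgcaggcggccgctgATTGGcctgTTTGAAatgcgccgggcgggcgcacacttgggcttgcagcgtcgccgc

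In Ccnb2 the CCAAT boxes lay at -87 to -83, -54 to -50 and -21 to -17 bases from the start and a CHR at 4 to 9. Promoters were found for 28 of the 36 list members. Both motifs were present in 17 of their 29 promoters (58.6%), against 6.95% of all 32851 promoters of the same length. Taken alone, the CHR was in 58.6% against 17.9% and the CCAAT box in 86.2% against 37.4%. The match of letters is a description of these windows and shows no binding.

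Among imprinted genes, which are expressed from 1 parental copy and many of which set early growth, 8 of 20 tested fell and Cdkn1c rose, and the median log2 fold change was -0.55. Igf2, the foetal growth factor, was at 76.9, 63.6 and 66.3 CPM at 3 weeks and 31.6, 28.6 and 24.9 CPM at 10 weeks. At 6 weeks it stood at 27.5, 34.2 and 30.4 CPM, which overlapped the 10-week values. Its log2 fold change over the whole span was -1.28 ± 0.16 (SE; adjusted p = 1.31e-05).

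Mest fell by 1.99 on the log2 scale, from 26.2, 25.1 and 23.8 CPM to 8.63, 4.54 and 5.64 CPM (adjusted p = 2.13e-05), and the transcription factor Plagl1 by 1.78. The noncoding RNAs H19 and Rian fell by 1.33 each. Cdkn1c, the cell cycle inhibitor p57, rose from 30.2, 23.3 and 26.7 CPM to 35.8, 37.5 and 53.9 CPM, with no overlap (log2 fold change 0.66 ± 0.15, adjusted p = 0.0037). Each of these 6 calls held with any 1 library left out, and the other 3 calls of the list were each lost in at least 1 such fit. Taken singly, these fits called 6 or 7 members lower.

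Of 19 genes of growth hormone and insulin-like growth factor signalling, 5 fell and 1 rose. The binding protein Igfbp3 fell from 40.5, 35.9 and 32.6 CPM to 17.6, 22.4 and 15.8 CPM, most of it after 6 weeks, when it was at 36.7, 32.1 and 31.1 CPM. Its log2 fold change was -0.97 ± 0.17 (adjusted p = 0.00035). Socs2, a target and brake of growth hormone signalling, fell by 0.70 and Pik3r1, the regulatory subunit of PI3 kinase, by 0.85.

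Red cell transcripts were lower in every library of 10 weeks than in any of 3 weeks. Hbb-bs, an adult beta globin, was at 2256, 1245 and 1853 CPM at 3 weeks, 908, 491 and 771 at 6 weeks and 294, 341 and 242 at 10 weeks. The 3 ages did not overlap, and the log2 fold change over the span was -2.61 ± 0.47 (adjusted p = 0.0022). All 7 red cell markers tested fell, with a median of -2.47, also with any 1 library left out. Among them were Alas2, the first enzyme of red cell haem synthesis (-2.07), and Slc4a1, the red cell anion exchanger (-2.11). The paired globin genes share nearly identical sequence, so the split between Hba-a1 and Hba-a2 or Hbb-bs and Hbb-bt is uncertain. In the libraries labelled KO 1 of the 7 fell over the same ages, Slc4a1, and Hbb-bs changed by -0.52 there, a difference from WT that was not called (adjusted p = 0.0743).

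**Figure D2:**
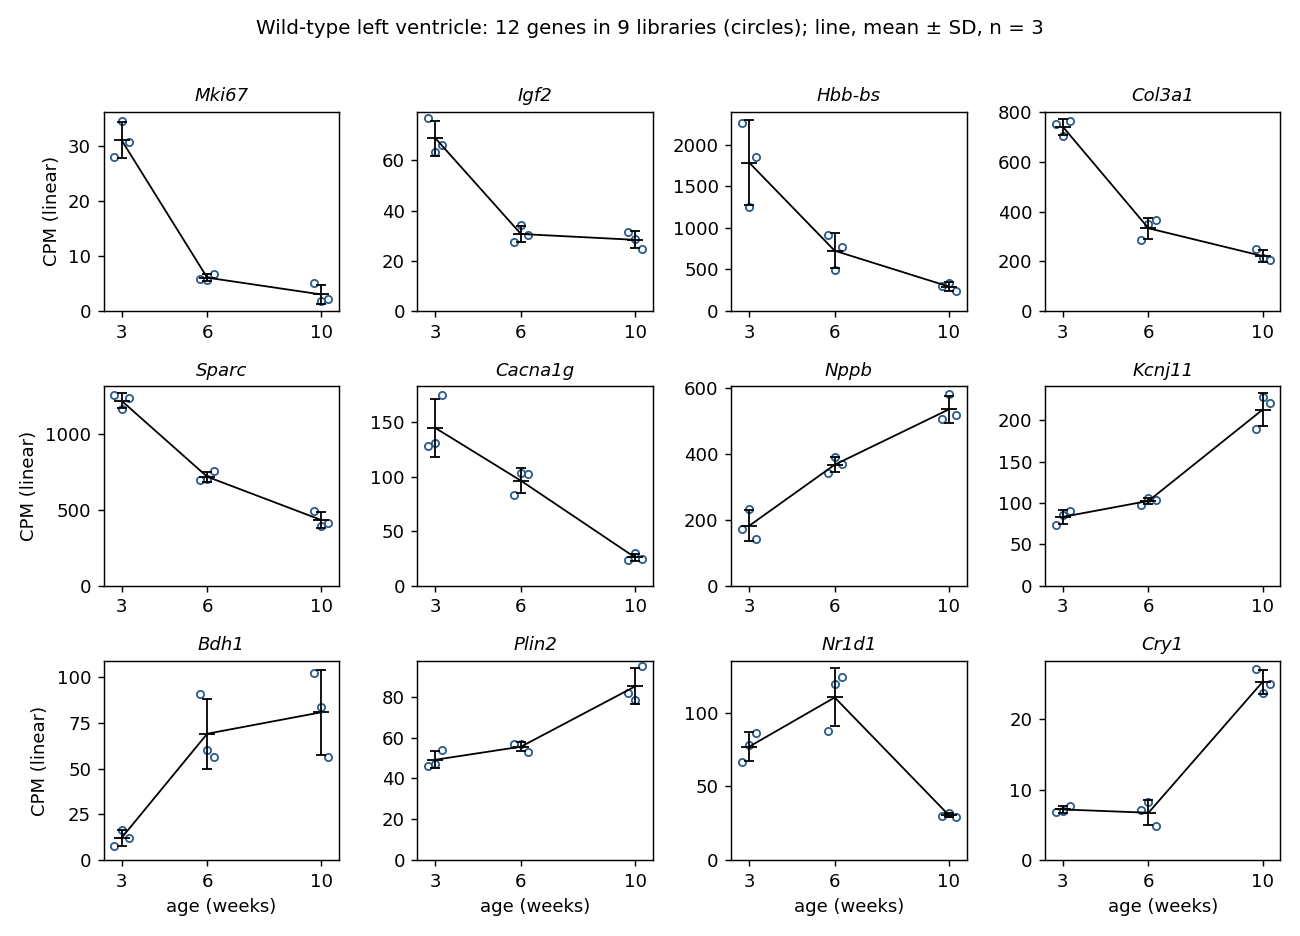
CPM of 12 genes in the 9 WT libraries (circles) against age in weeks, with the mean and SD of 3 libraries (line and bars; every vertical axis is linear and starts at 0). Igf2 and Col3a1 are near their 10-week level at 6 weeks, and Mki67 falls mainly before 6 weeks and further after it. Kcnj11, Plin2 and Cry1 rise and Nr1d1 falls mainly between 6 and 10 weeks.

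Genes of the fibrillar collagens and their matrix partners fell together. Of 46 tested, 23 fell and 2 rose, and the median log2 fold change was -0.88. Sparc, a collagen-binding matrix glycoprotein, was at 1261, 1164 and 1236 CPM at 3 weeks, 695, 704 and 756 at 6 weeks and 490, 394 and 414 at 10 weeks. It fell with no overlap at either step, by 1.5 ± 0.12 on the log2 scale over the span (adjusted p = 1.3e-08).

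Col3a1, the collagen III chain, fell from 753, 706 and 766 CPM to 248, 212 and 203 CPM, again without overlap (-1.75 ± 0.17, adjusted p = 5.14e-07). The collagen V chain Col5a1 fell by 1.30, the collagen I chain Col1a2 by 0.99 and the microfibril gene Fbn1 by 1.33. Postn (periostin, made by active fibroblasts) was at 55.6, 48.9 and 55.4 CPM at 3 weeks and 18, 18.8 and 11 CPM at 10 weeks (-1.74 ± 0.40, adjusted p = 0.00973). Against this direction Fbln1, the matrix protein fibulin-1, rose from 76.3, 70.2 and 85.3 CPM to 125, 160 and 142 CPM (0.89 ± 0.16, adjusted p = 0.000923). From 3 to 6 weeks 19 of the 46 fell, from 6 to 10 weeks 7 did, and 19 to 23 were called lower over the span with any 1 library left out. The increases numbered 1 in those fits, and 2 without replicate 3 of 3 weeks.

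Collagen processing genes were mixed. Of 25 tested, 8 fell (5 without replicate 1 of 10 weeks or replicate 3 of 3 weeks), led by the crosslinking enzyme Loxl2 (40.8, 45.3 and 39.6 CPM to 13.3, 12.7 and 12.6 CPM, log2 fold change -1.71 ± 0.17, adjusted p = 5.14e-07). The 2 that rose were P4ha1 and P4ha2, catalytic subunits of the proline hydroxylase of collagen, by 0.77 and 0.55. Of 28 genes of the basement membrane and its integrins, 12 fell and 2 rose. The collagen IV chains Col4a1 and Col4a5 fell by 1.13 and 1.05, whereas Lamb2, a laminin chain of mature basement membranes, rose from 399, 395 and 488 CPM to 610, 657 and 688 CPM (0.61 ± 0.13, adjusted p = 0.0021).

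Fibroblast markers moved with these genes in part. Of 15 tested, 5 fell and 1 rose, with Meox1 lower by 0.94 and Cd248 by 0.71. Their summed level was 1889 to 2228 CPM at 3 weeks and 1908 to 2125 CPM at 10 weeks, so the sums of the ages overlapped. The part of fibroblast number in the fall of the matrix genes was not tested. Of 20 endothelial markers 3 fell and 2 rose, but the 3 decreases were down to 0 without replicate 2 of 10 weeks and to 1 without replicate 3 of 10 weeks or replicate 1 of 3 weeks. Held in all fits was the TGF-beta co-receptor Eng, higher by 0.62. Macrophage markers were lower in 6 of 15. Cx3cr1, the fractalkine receptor, was at 13.8, 9.20 and 11.1 CPM at 3 weeks and 4.64, 3.25 and 5.23 CPM at 10 weeks (-1.38 ± 0.26, adjusted p = 0.000923), and the mannose receptor Mrc1 fell by 0.84. Between 3 and 5 of the 6 macrophage calls held when 1 library was left out. The count was 3 without replicate 1 of 3 weeks, replicate 2 of 10 weeks or replicate 3 of 10 weeks.

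Few genes of the sarcomere itself were called over the whole span. Of 25 foetal and adult isoform genes 1 fell and 1 rose. By step, 7 rose and 2 fell from 3 to 6 weeks, against 2.94% and 2.24% of all genes tested. From 6 to 10 weeks 1 rose and 2 fell. Tpm4, a tropomyosin of immature and non-muscle cells, fell from 136, 136 and 118 CPM to 79.7, 65.7 and 67.9 CPM (-0.87 ± 0.15, adjusted p = 0.000309). Myh6, the adult alpha myosin heavy chain, was at 29027, 31050 and 37701 CPM against 41462, 46039 and 43271 CPM (0.42 ± 0.13, adjusted p = 0.027), and its call was lost without replicate 1 or 2 of 3 weeks or replicate 2 or 3 of 10 weeks, with an adjusted p of up to 0.14. Myh7, the foetal beta heavy chain, was not called, at 1036, 987 and 1320 CPM against 1432, 1586 and 1640 CPM (adjusted p = 0.187). Tnni1, the foetal troponin I, was under 0.6 CPM in all 6 libraries.

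Of 25 genes of the Z-disc, M-band and intercalated disc, 7 rose and 1 fell, with a median log2 fold change of 0.14. Myot (myotilin, a Z-disc protein) rose from 12.4, 19.7 and 14.9 CPM to 32.8, 39.5 and 33.3 CPM (1.17 ± 0.25, adjusted p = 0.00462), and Cmya5 (myospryn) from 473, 593 and 588 CPM to 769, 851 and 718 CPM. Only 2 to 5 of the increases were called without replicate 1 or 2 of 3 weeks (2 and 3) or replicate 1, 2 or 3 of 10 weeks (5, 3 and 4). Of 20 natriuretic and stress genes, 3 rose and 1 fell. The decrease was lost without replicate 1 or 3 of 10 weeks, 1 increase was called without the pair richest in Myl4, and DESeq2 called 6 increases. Nppb, the B-type natriuretic peptide, was at 171, 232 and 140 CPM at 3 weeks, 342, 388 and 368 at 6 weeks and 505, 581 and 516 at 10 weeks. The ages did not overlap, and the increase was 1.56 ± 0.35 on the log2 scale (adjusted p = 0.00814). Edn3, the peptide endothelin-3, rose from 0.291, 1.04 and 0.443 CPM to 8.83, 4.76 and 7.03 CPM (3.50 ± 0.54, adjusted p = 0.000524).

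Calcium handling and T-tubule genes went both ways, with 7 lower and 4 higher of 29. The number higher was 1 without replicate 1 or 2 of 3 weeks and 2 without replicate 2 or 3 of 10 weeks. Cacna1g, a T-type calcium channel of the immature heart and of pacemaker cells, was at 128, 131 and 175 CPM at 3 weeks, 83.0, 103 and 103 at 6 weeks and 23.7, 29.5 and 24.3 at 10 weeks. The 10-week values were far below both younger ages, and the decrease over the span was the most certain of the list (-2.49 ± 0.20, adjusted p = 1.95e-07). Casq1, the skeletal calsequestrin, fell by 1.66, and Casq2, the cardiac one, by 0.45. Jph2, the protein that ties T-tubules to the sarcoplasmic reticulum, rose from 682, 872 and 914 CPM to 1130, 1233 and 1337 CPM (0.58 ± 0.12, adjusted p = 0.00193). The sarcoplasmic reticulum pump gene Atp2a2 was at 12655, 14538 and 13219 CPM against 17151, 16604 and 17684 CPM and just missed the threshold (adjusted p = 0.0507). The release channel Ryr2 was at 1473 to 1981 CPM against 1557 to 1865 CPM.

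Among potassium, sodium and pacemaker channels 5 of 27 rose and 3 fell, with 3 higher without replicate 1 of 3 weeks. Kcnj11, the pore of the ATP-sensitive potassium channel, was at 73.9, 85.7 and 89.9 CPM at 3 weeks, 98.1, 106 and 104 at 6 weeks and 190, 228 and 221 at 10 weeks (1.36 ± 0.17, adjusted p = 1.7e-05). Kcne1, a regulatory subunit of delayed rectifier channels, fell from 36.7, 28.4 and 44.6 CPM to 9.81, 13.4 and 7.84 CPM (-1.81 ± 0.26, adjusted p = 0.000156). Kcnv2, a silent modifier of potassium channels, rose by 2.28 and Scn4b, a sodium channel beta subunit, by 2.77. Kcnj14 is described with the near-silent genes below.

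Genes of fatty acid use were higher at 10 weeks. Of 30 genes of uptake and oxidation 19 rose, against 8.45% of all genes tested, with a median log2 fold change of 0.39. The 3 and 3 values of 25 did not overlap, against 36.3% of all genes tested. The trifunctional protein subunit Hadha was at 1295, 1337 and 1339 CPM at 3 weeks, 1710, 1648 and 1759 at 6 weeks and 1936, 1996 and 2114 at 10 weeks. The ages did not overlap and the increase was 0.61 ± 0.10 on the log2 scale (adjusted p = 0.000195).

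Ech1, an isomerase of unsaturated fatty acids, rose from 661, 622 and 668 CPM to 1041, 1176 and 1332 CPM (0.86 ± 0.12, adjusted p = 6.49e-05), and Cpt1b, the muscle gatekeeper of fatty acid entry into mitochondria, by 0.52. Members that did not pass the test included the uptake proteins Cd36 (921, 951 and 655 CPM against 1190, 990 and 1026 CPM, adjusted p = 0.108) and Fabp3 (adjusted p = 0.112). The number called higher was 11 without replicate 1 of 3 weeks or replicate 3 of 10 weeks and 10 without the pair richest in Myl4. From 3 to 6 weeks 10 of the 30 rose. Over the span 8 rose in the libraries labelled KO, and the difference in change was called for 2 of the 30.

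Among 18 targets of the fatty acid receptors of the PPAR family, 12 rose, with a median of 0.76. Plin2, a coat protein of lipid droplets, was at 46.2, 47.1 and 54.0 CPM at 3 weeks, 56.8, 56.8 and 52.9 at 6 weeks and 81.9, 78.2 and 94.9 at 10 weeks (0.79 ± 0.12, adjusted p = 8.6e-05). The 10-week values stood above both younger ages, which overlapped. Acot1, a cytosolic thioesterase of fatty acyl-CoA, rose from 14.7, 9.72 and 12.3 CPM to 51.8, 32.8 and 35.4 CPM (1.71 ± 0.31, adjusted p = 0.00131). The triglyceride lipase Pnpla2 rose by 0.78 and the lipid droplet protein Plin5 by 0.82. Without replicate 1 or 2 of 3 weeks, or without replicate 1 or 3 of 10 weeks, 8 of the 12 were called. Of these 18 genes 2 rose from 3 to 6 weeks and 5 from 6 to 10 weeks, and over the span 2 rose and 2 fell in the libraries labelled KO.

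The regulators of these genes were divided. Of 20 genes of the PGC-1, PPAR and ERR network 6 rose and 3 fell. Esrra, the nuclear receptor ERR-alpha, rose from 182, 185 and 206 CPM to 255, 294 and 321 CPM (0.60 ± 0.13, adjusted p = 0.00218). Hif3a, a hypoxia-inducible factor subunit, fell from 5.10, 5.66 and 6.52 CPM to 0.789, 1.18 and 0.988 CPM, all after 6 weeks (-2.54 ± 0.30, adjusted p = 5.68e-06). Ppara and Ppargc1a were not called, at 25.7 to 36.7 CPM against 31.9 to 41.1 CPM and 55.9 to 80.5 CPM against 61.9 to 75.4 CPM. The ERR half-site (AAGGTCA, both strands) was in 2 of 27 promoters of the uptake and oxidation genes (7.41%), against 4.72% of all promoters. Without replicate 1 of 3 weeks 1 of the 6 regulators that rose was called, without replicate 2 of 3 weeks or 2 or 3 of 10 weeks 2, and without replicate 1 of 10 weeks 3.

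Glucose and intermediary metabolism moved gene by gene. Hk2, the insulin-responsive hexokinase, rose from 228, 255 and 285 CPM to 428, 454 and 516 CPM without overlap (0.86 ± 0.12, adjusted p = 2.86e-05), among 5 increases and 3 decreases in 26 glycolysis genes. The increases numbered 2 without replicate 1 of 3 weeks and 3 without replicate 2 or 3 of 10 weeks, and the decreases 1 without replicate 2 of 3 weeks or replicate 1 or 2 of 10 weeks. Bdh1, which oxidises the ketone body hydroxybutyrate, was at 7.67, 16.5 and 12.4 CPM at 3 weeks, 90.9, 59.9 and 56.2 at 6 weeks and 102, 83.8 and 56.2 at 10 weeks. Its increase of 2.73 ± 0.34 (adjusted p = 0.000112) was complete by 6 weeks as far as the overlap of the later ages shows. Bckdha, of the branched-chain ketoacid dehydrogenase, rose by 0.81, while Ppm1k, the phosphatase that activates this complex, fell from 99.8, 107 and 79.8 CPM to 37.3, 43.8 and 23.4 CPM (-1.45 ± 0.19, adjusted p = 3.27e-05). In lipid synthesis Dgat2 and Me1 rose by 1.16 and 0.81, and Scd2, the desaturase of growing tissues, fell by 1.29.

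Respiratory chain and ribosomal protein genes did not follow a line from 3 to 10 weeks. Of 48 nuclear genes of oxidative phosphorylation 11 rose from 3 to 6 weeks and 22 fell from 6 to 10 weeks, and over the span 3 rose, with a median log2 fold change of -0.02. Cox6a2, a muscle subunit of cytochrome oxidase, was at 958, 736 and 1098 CPM at 3 weeks, 1679, 1339 and 1645 at 6 weeks and 1052, 1122 and 1210 at 10 weeks. Its 6-week values stood above both other ages, by 0.74 against 3 weeks (adjusted p = 0.00193) and by 0.46 against 10 weeks (adjusted p = 0.0231). All 3 calls over the span, those of Ndufv1 and Ndufs7 among them, were lost without replicate 1 or 2 of 3 weeks or replicate 2 or 3 of 10 weeks. Of 36 ribosomal protein genes 4 rose from 3 to 6 weeks and 12 fell from 6 to 10 weeks.

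In all, 131 genes were called higher at 6 weeks than at both 3 and 10 weeks, and 23 were called lower than at both. Of the 131, 29 had symbols of the respiratory chain, of 139 such genes tested, a group singled out after the values were seen. The transcripts of the 131 had a median length of 1552 bases and 30.5% were under 1000 bases, against 3800.5 bases and 6.86% of all genes tested, and the 23 had a median of 6129 bases. Over all genes under 1000 bases the median log2 fold change was 0.17 from 3 to 6 weeks and -0.24 from 6 to 10 weeks, against -0.05 and 0.04 for genes of 4000 bases and over. Over the whole span these medians were -0.07 and -0.02. The share of counts from the mitochondrial genome was 15.2% ± 2.34, 12% ± 1.10 and 14.1% ± 0.846 at 3, 6 and 10 weeks (SD, n = 3). The part of transcript length in the 6-week levels was not tested. Among the 131 were Thrsp, a lipogenic gene (18.9, 17.6 and 20.5 CPM, then 58.5, 27.2 and 35.5, then 11.5, 13.5 and 11.8), and Gchfr, the regulator of GTP cyclohydrolase. Among the 23 were Tmem100 and Rsad2.

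**Figure D3:**
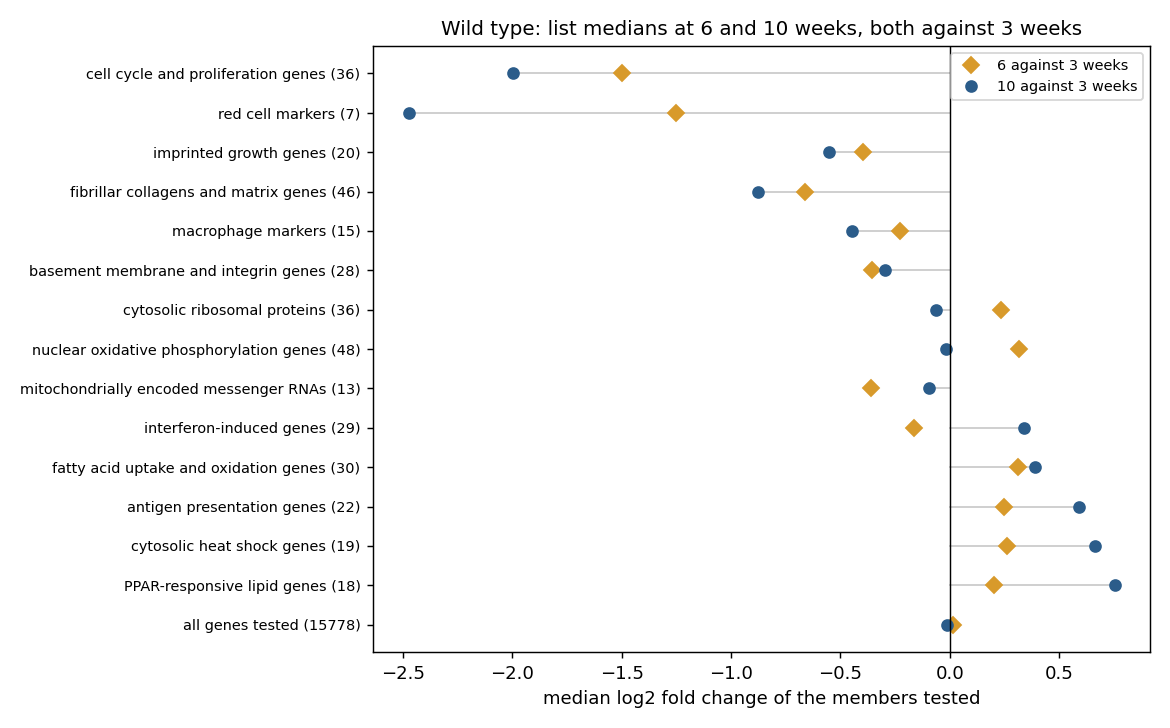
Median log2 fold change of the members of 14 lists and of all genes tested at 6 weeks (diamonds) and 10 weeks (circles), both against 3 weeks in WT, with the number tested in brackets. Cell cycle and matrix medians (-1.99 and -0.88 at 10 weeks) are mostly reached at 6 weeks, oxidative phosphorylation and ribosomal medians are displaced at 6 weeks only, and the interferon median changes sign.

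Clock genes changed in opposite directions within the feedback loop. Of 19 tested 3 rose and 3 fell, in every fit that left out 1 library. Cry1, a repressor of the loop, was at 6.85, 6.98 and 7.73 CPM at 3 weeks, 7.15, 8.25 and 4.77 at 6 weeks and 27.1, 23.7 and 25 at 10 weeks (1.81 ± 0.19, adjusted p = 1.56e-06). Nr1d1, a nuclear receptor that represses the activators, was at 66.3, 78.3 and 86.2 CPM, then 87.8, 119 and 124, then 30.2, 32.0 and 29.3 (-1.33 ± 0.25, adjusted p = 0.00156). The changes of both lay after 6 weeks.

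Nr1d2, a receptor of the same kind as Nr1d1, and Per1, a repressor of the loop, fell by 1.24 and 0.86, and Bhlhe41 rose by 0.81. Arntl, the activator, was not called (24.3, 17.3 and 19.3 CPM against 37.7, 34.0 and 27.4 CPM, adjusted p = 0.177). The hour at which tissue was taken is not given in the labels, so age and hour cannot be told apart. Promoters of Cry1 (chr10:85185005-85185304, minus strand) and Per1 (chr11:69098699-69098998, plus strand) are printed because both held the E-box to which the activators bind (CACGTG, its own reverse complement, in capitals) while the genes moved in opposite directions.
Cry1: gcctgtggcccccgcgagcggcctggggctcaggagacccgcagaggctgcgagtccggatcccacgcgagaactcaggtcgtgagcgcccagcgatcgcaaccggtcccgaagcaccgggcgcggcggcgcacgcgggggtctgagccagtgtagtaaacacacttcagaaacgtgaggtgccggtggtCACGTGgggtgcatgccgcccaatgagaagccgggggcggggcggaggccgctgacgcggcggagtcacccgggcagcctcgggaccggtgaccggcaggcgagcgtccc
Per1: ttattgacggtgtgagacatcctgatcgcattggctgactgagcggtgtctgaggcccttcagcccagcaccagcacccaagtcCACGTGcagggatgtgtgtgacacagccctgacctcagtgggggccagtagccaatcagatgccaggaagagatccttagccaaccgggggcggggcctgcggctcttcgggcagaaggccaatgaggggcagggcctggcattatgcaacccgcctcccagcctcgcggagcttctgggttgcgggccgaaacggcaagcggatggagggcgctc

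These are RefSeq sequences of GRCm38.p6. The E-box lay at -60 to -55 in Cry1 and -166 to -161 in Per1. It was in 6 of 21 clock gene promoters (28.6%), against 7.15% of all promoters.

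Glucocorticoid-responsive genes were lower in 6 of 17. Zbtb16, a transcription factor induced by the hormone, was at 131, 174 and 132 CPM at 3 weeks, 181, 155 and 181 at 6 weeks and 42.4, 29.7 and 49.1 at 10 weeks (-1.85 ± 0.31, adjusted p = 0.00102), and the metallothionein Mt2 fell by 2.15. Cytosolic heat shock genes rose in 7 of 19, with a median of 0.66. Hspb6, a small heat shock protein of muscle, rose from 296, 376 and 411 CPM to 763, 857 and 1072 CPM (1.32 ± 0.15, adjusted p = 5.29e-06), and Bag3, a co-chaperone of protein quality control, by 0.83. Endoplasmic reticulum chaperones rose in 5 of 18, with Dnajc3 at 38.8, 34.1 and 28.5 CPM against 67.0, 70.3 and 61.6 CPM (0.97 ± 0.16, adjusted p = 0.000319). Without replicate 1 or 2 of 3 weeks or 1 or 2 of 10 weeks 3 of the 5 were called. From 6 to 10 weeks 7 of the 17 glucocorticoid-responsive genes fell and 1 rose, and in the libraries labelled KO 5 fell and 1 rose over the span. Of the 18 chaperones 3 fell there.

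Antigen presentation genes rose in 12 of 22, with a median log2 fold change of 0.59. H2-K1, a class I molecule, was at 78.5, 70.1 and 80.0 CPM at 3 weeks, 92.4, 84.0 and 90.3 at 6 weeks and 149, 129 and 149 at 10 weeks (0.91 ± 0.13, adjusted p = 5.05e-05). Cd74, the invariant chain of class II, rose from 40.4, 45.3 and 42.6 CPM to 72.5, 68.4 and 93.3 CPM, and was at 78.6, 81.7 and 87.0 CPM already at 6 weeks (0.87 ± 0.21 over the span, adjusted p = 0.00805). The class I genes H2-Q6 and H2-Q7 rose by 3.17 and 2.33, but belong to a family of near-identical copies and are uncertain. With 1 library left out 8 to 11 of the 12 were called, 8 of them without replicate 1 of 3 weeks.

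Interferon-induced genes rose in part, and mainly after 6 weeks. Rsad2 (viperin) was at 8.59, 8.68 and 9.06 CPM at 3 weeks, 4.51, 4.36 and 4.98 at 6 weeks and 16.7, 15 and 11.7 at 10 weeks (0.72 ± 0.17 over the span, adjusted p = 0.00529). Of 29 tested 3 fell from 3 to 6 weeks, 13 rose from 6 to 10 weeks and 9 rose over the span, with a median of 0.34. Irf7, the transcription factor that amplifies the response, rose from 6.41, 5.71 and 5.26 CPM to 12.6, 9.69 and 9.30 CPM (0.86 ± 0.18, adjusted p = 0.00198), and Oas2 by 1.51. In the libraries labelled KO 1 of the 29 rose and 6 fell, and the change was called lower there than in WT for 5.

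The largest changes were those of the near-silent genes. Ptprn2, a phosphatase-like protein of secretory granules (chr12:116485720-117276849, GRCm38), had 157, 192 and 168 reads at 3 weeks, 311, 365 and 333 at 6 weeks and 1, 0 and 0 at 10 weeks. Kcnj14, an inward rectifier channel (chr7:45816460-45824782), was at 32.8, 40.2 and 44.2 CPM at 3 weeks, 61.8, 63.0 and 61.1 at 6 weeks and 0.592, 0.784 and 1.05 at 10 weeks (-5.60 ± 0.33, adjusted p = 1.98e-09). The liver-type glycogen phosphorylase Pygl (chr12:70190811-70231488) was at 69.3, 76.1 and 74.9 CPM, then 80.7, 50.9 and 62.1, then 4.29, 4.20 and 3.84 (-4.16 ± 0.22, adjusted p = 9.82e-11). These 3 genes were not low at 6 weeks, and none of their 10-week values came near the younger ages.

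In the libraries labelled KO the same genes were below their level in young WT at every age. Kcnj14 was at 9.91 ± 1.79 CPM at 6 weeks and 9.12 ± 2.21 at 10 weeks, and Pygl at 5.92 ± 1.69 and 7.32 ± 0.931 (SD, n = 3). Hmga1b, a copy of the chromatin gene Hmga1 and therefore uncertain in counting, fell in WT from 6.28 ± 0.740 CPM to 0.471 ± 0.181 but stood at 7.18 ± 1.12 and 10.2 ± 1.40 in the libraries labelled KO. In the other direction Hrasls, a phospholipase of the HRAS-like suppressor family, rose from 0.146, 0.377 and 0.507 CPM to 24.8, 23.9 and 32.8 CPM (6.33 ± 0.30, adjusted p = 6.69e-12), after 1.04, 0.897 and 0.840 CPM at 6 weeks. Eps8l1, an actin-regulating adaptor, rose from 0.0971, 0.708 and 0.570 CPM to 25.4, 14.1 and 22.5 CPM. Guca1b, a guanylate cyclase activator, had 0 reads in all 6 younger libraries and 37, 38 and 41 reads at 10 weeks, which is at least 40.5-fold higher against a floor of 3 reads over the 3-week group.

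**Figure D4:**
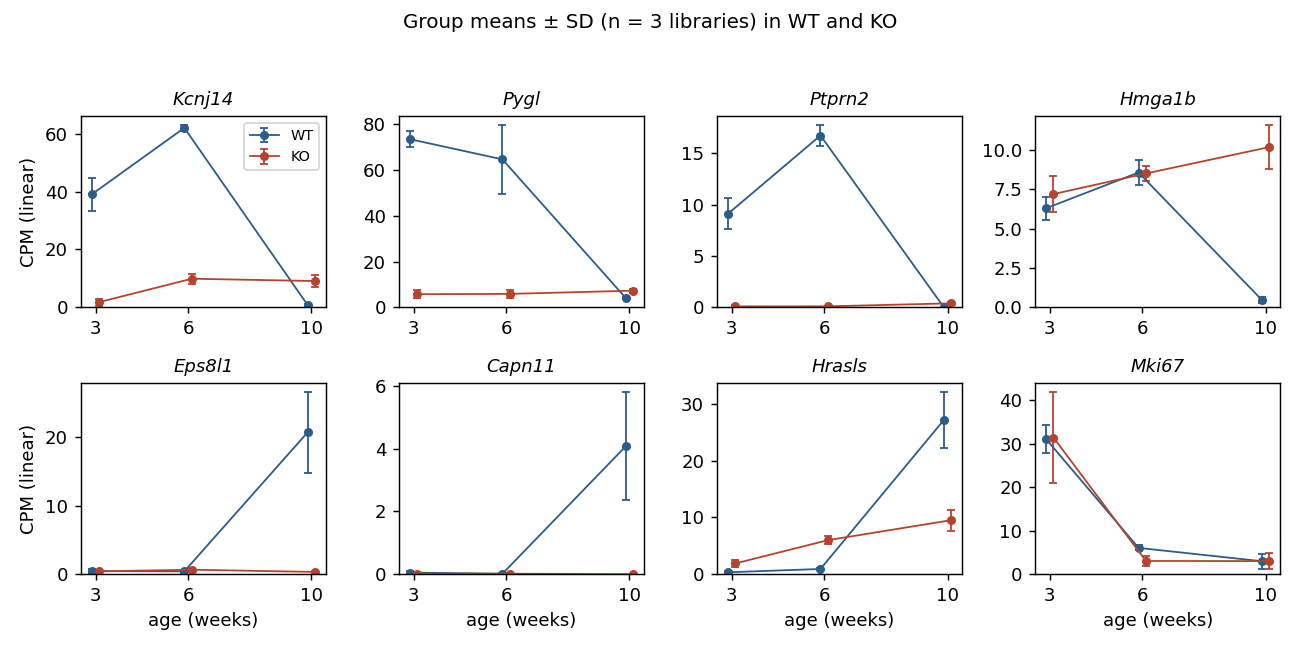
Mean CPM ± SD of 3 libraries against age for 8 genes in WT (blue) and in the libraries labelled KO (red), with linear axes from 0. Kcnj14, Pygl and Ptprn2 drop in WT after 6 weeks, Kcnj14 to 0.807 CPM against 9.12 CPM in the libraries labelled KO at 10 weeks, Hmga1b drops in WT and stays at 7.18 to 10.2 CPM in the libraries labelled KO, Eps8l1 and Capn11 stay below 1 CPM there, and Mki67 is shown as a gene that falls in both.

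Among the 15 largest increases by the naming rule, Inmt (a methyltransferase) rose through 1.84, 1.18 and 3.17 CPM, 5.17, 8.67 and 6.56 CPM, and 13.1, 19.5 and 15.7 CPM, an increase of 2.99 ± 0.30 (adjusted p = 7.8e-07). Cpxm2, a carboxypeptidase-like matrix protein, rose from 2.18, 1.37 and 2.28 CPM to 22.6, 15 and 13.1 CPM at 6 weeks and stayed at 12.5, 16.6 and 7.09 CPM at 10 weeks (2.65 ± 0.35, adjusted p = 9.86e-05). Of the 15 largest decreases, 8 were genes of mitosis, a group singled out after the values were seen (Ckap2, Cep55, Ccnb1, Pbk, Kntc1, Cdk1, Birc5 and Ccnb2). Over all genes, 115 changes exceeded 8-fold (0.729% of genes tested), 26 increases and 89 decreases, and 41 of them were predicted loci. Of the 115, 20 were pseudogenes, against 465 of 15778 genes tested. Of all 2609 calls of any size 2422 were left without predicted loci, pseudogenes and antisense transcripts.

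The change from 3 to 10 weeks was then compared with that in the libraries labelled KO, which share no library with WT. In those, 102 genes changed over 8-fold (0.646%) and 3179 were called (20.1%), 1547 higher (9.8%) and 1632 lower (10.3%). Of the WT increases 488 were also increases there, which is 36.6% of the WT list and 31.5% of the other. Of the WT decreases 562 were shared, 44.1% of the WT list and 34.4% of the other. 38 and 34 genes were called in opposite directions. Of the 6 libraries labelled KO at 3 and 10 weeks 2 were rich in atrial transcript, with Myl4 at 118 CPM in replicate 3 of 3 weeks and 1145 CPM in replicate 1 of 10 weeks. Replicate 3 of 6 weeks, which this contrast does not compare, stood at 436 CPM. Without the first 2 of these 490 increases and 514 decreases were shared.

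A difference between the genotypes in the change with age was called for 909 genes (5.76%; 2.82% with a higher and 2.94% with a lower change in the libraries labelled KO), including 235 of the WT increases (17.6%) and 195 of the WT decreases (15.3%). The 909 became 570, 552 or 558 without WT replicate 1 or 2 of 3 weeks or 3 of 10 weeks, and 553 or 1497 without replicate 2 or 3 of 10 weeks of the libraries labelled KO. It was called for 2 of 36 cell cycle, 6 of 46 matrix and 2 of 20 imprinted genes. For 6 of 25 Z-disc, M-band and intercalated disc genes the change was higher in the libraries labelled KO, and for 4 of 18 PPAR-responsive and 6 of 18 chaperone genes it was lower. Of 20 natriuretic and stress genes 14 rose in the libraries labelled KO and 3 in WT. The difference was called for 3, with a higher change in the libraries labelled KO for 2 and a lower change for 1. For Myot the increase was 3.71 there against 1.17 in WT, and the difference was called (adjusted p = 0.000415). Tcap, which encodes the Z-disc protein telethonin, rose by 1.38 in the libraries labelled KO while it fell in WT (difference 2.02, adjusted p = 0.000313), although the fall in WT (848, 931 and 975 CPM to 475, 587 and 699 CPM, adjusted p = 0.0345) was called in 1 of the 6 fits that left out a library, the one without replicate 3 of 10 weeks. Of the clock genes, Nr1d1 and Per1 rose by 1.03 and 0.50 in the libraries labelled KO where they fell in WT (adjusted p of the difference 0.00073 and 0.0014).

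**Figure D5:**
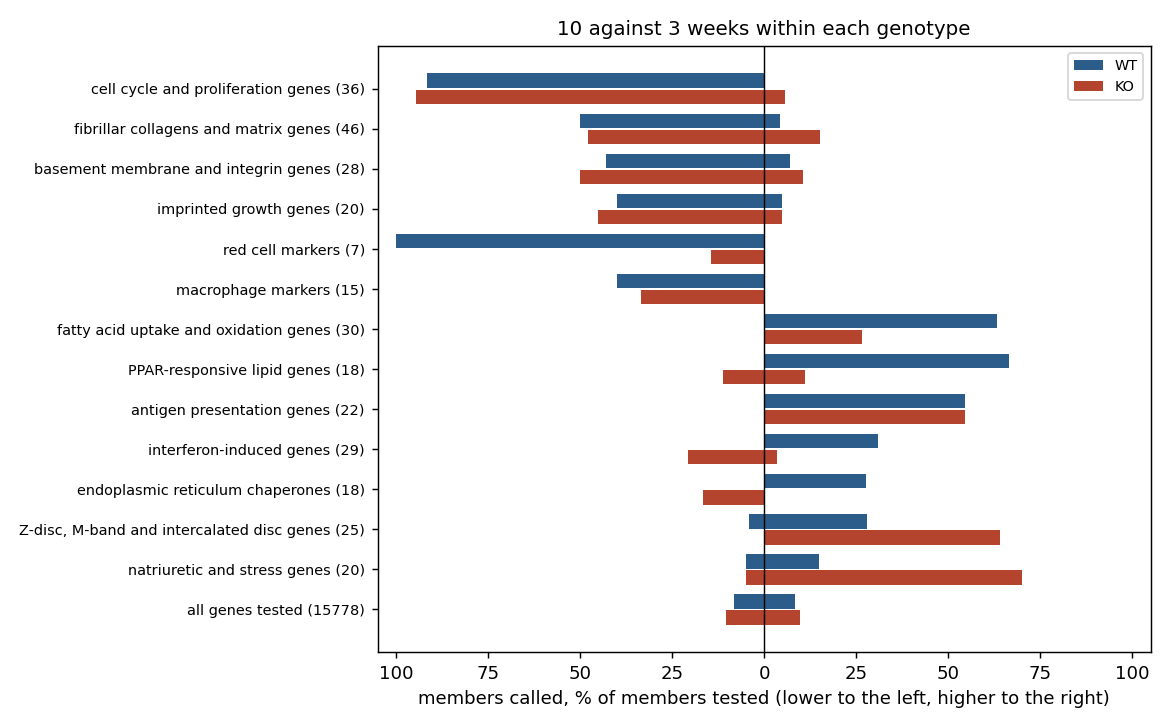
Members called from 3 to 10 weeks in WT (blue) and in the libraries labelled KO (red), as a percent of the members tested (number in brackets), higher to the right and lower to the left. Cell cycle and matrix genes fall in both, with 33 and 34 of 36 cell cycle genes lower and 2 higher in the libraries labelled KO. Fatty acid genes rise in 19 and 8 of 30 (the difference in change was called for 2). Natriuretic and stress genes rise in 3 and 14 of 20 (the difference was called for 3, of which 1 was a lower change in the libraries labelled KO).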

How the data were processed

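RNA of 18 left ventricle libraries, 3 in each of 6 groups of genotype and age, was counted per gene. The deposited values are raw counts of 49315 Ensembl genes per library, made by the authors, per the submitters' processing notes, on the build GRCm38 with tools that include Trimmomatic 0.36, STAR 2.5.2b and featureCounts of Subread 1.5.2. How the counting treated strand and reads with several positions, and which annotation it used, are not given in the sources used here, so overlapping and antisense genes cannot be separated.

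Symbols came from GENCODE M21 (49056 matched, 259 did not). Genes were filtered with filterByExpr (minimum count 10, minimum total 15), scaled by TMM and fitted in 1 robust quasi-likelihood model of all 18 libraries with edgeR 4.0.16 in R 4.3.3, after tests on simulated data. Every adjusted p is Benjamini-Hochberg over 15778 genes. DESeq2 1.42.0 and limma 3.58.1 (voom), other size factors and filters, smaller sets of libraries and leave-one-out fits were alternatives. CPM and the standard errors derive from the fit, and a count of 0 was read as up to 3 counts over a group.

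The members and the 46 gene lists were chosen with earlier results of these data known. Named were, among called genes without overlap, with at least 2 CPM and called in all 6 leave-one-out fits, the 15 largest changes each way, then up to 4 called members per list and direction, the 5 largest with a 6-week level beyond both ends, and the 5 largest genotype differences each way; other members are given as values. Replicates differed beyond sampling noise (chi-squared per degree of freedom 7.04 to 24.6). Same-numbered libraries did not meet the criterion for pairing (every correlation over 0.1), so the numbers were not used as a block. Promoters are RefSeq. Some genes are not reported here.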

Additional observations from a re-analysis of the deposited data

Results flagged for a closer look

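The named genes below changed differently from 3 to 10 weeks in the libraries labelled KO than in WT by the interaction term of the edgeR fit, and each was also called in WT. The values in brackets are the KO change minus the WT change on the log2 scale. A positive value can come from a fall in WT alone and need not be a rise in the libraries labelled KO. Ptprn2, for example, was at 0.102 and 0.401 CPM there at 3 and 10 weeks, and at 9.11 and 0.0164 CPM in WT, so its value rests on few reads. Kcnj14 and Pygl were at 1.84 and 5.78 CPM there at 3 weeks, against 39.0 and 73.4 CPM in WT. The change was lower in the libraries labelled KO for Eps8l1 (-5.86), Unc5a (-5.04), Hrasls (-3.99), Gbp10 (-3.59), Cnmd (-3.40), Kcne1 (-2.56), Amy1 (-2.19), Inmt (-1.88), Tmem100 (-1.83), Cry1 (-1.82) and Kcnj11 (-1.51). Smaller differences in that direction were those of Oas2 (-1.40), Rsad2 (-1.35), Hyou1 (-1.11), Irf7 (-1.10), Dnajc3 (-1.08), Ppargc1b (-1.06), Dgat2 (-1.01), Cdkn1c (-0.998), Ppard (-0.87), Fbln1 (-0.87), Igf2 (-0.85), Agpat2 (-0.83), Stat5b (-0.80), Plin2 (-0.74), Xbp1 (-0.74), Kcnk3 (-0.71), Fkbp4 (-0.71) and Decr1 (-0.61). The change was higher in the libraries labelled KO for Ighm (1.52), Nr1d2 (1.67), Mt2 (1.73), Tcap (2.02), Bdh1 (2.15), Cpxm2 (2.28), Nr1d1 (2.36), Myot (2.54), Tent5b (4.05), Hmga1b (4.22), Pygl (4.49), Pak3 (5.52), Kcnj14 (7.96) and Ptprn2 (10.30). Smaller differences in that direction were those of P4ha1 (0.62), Mut (0.65), Col4a5 (0.79), Bcat2 (0.86), Pfkp (0.97), Igfbp3 (1.04), Ppm1k (1.07), Tbx18 (1.33), Meox1 (1.33), Per1 (1.36) and Mcm6 (1.42).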

How the results depend on the processing

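Leaving out 1 library gave 1462 to 2743 calls between 10 and 3 weeks, 199 to 1313 between 6 and 3 weeks, 555 to 1185 between 10 and 6 weeks and 552 to 1497 for the genotype difference. The 10 against 3 week count was 1698 without replicate 3 of 3 weeks and replicate 2 of 10 weeks together, an alternative chosen after seeing the data, and 2499 to 3583 under every other setting that kept all 6 libraries, apart from 2422 when predicted loci, pseudogenes and antisense transcripts were not counted, also chosen after seeing the data. The 6 against 3 week count was 1404 with no filter on low counts, 1811 with only the 9 WT libraries, 1495 with only the 2 groups and 1325 by DESeq2. The 10 against 6 week count was 2133 with only the 9 WT libraries and 2463 with only the 2 groups, and the genotype difference was 1479 with no filter. The cause of these shifts was not tested. The number of called genes with a 6-week mean between the ends was 1996 to 2152 with 1 library left out. The deviations of same-numbered libraries correlated at 0.080, -0.076 and 0.024 between 3 and 10 weeks. Between 3 and 6 weeks the values were 0.112, 0.0961 and 0.0731, a hint of pairing from the data and not the design. Every different-numbered pair there was negative, but deviations from a group mean cancel within the group. Positive same-numbered values therefore push the others negative, and the sign of those is no further hint. A replicate block gave 2548, 849, 1329 and 886 calls in the 4 comparisons. Of 195 called named genes 149 were called in all 6 leave-one-out fits, and none changed direction. Depth limits the genes near 1 CPM, whose values rest on few reads.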
